A study of Mus musculus with 6 samples.

Results

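Described here are 10 genes of transforming growth factor beta (TGF-beta) signalling in mouse T cells: the ligand gene Tgfb1, the receptor genes Tgfbr1 and Tgfbr2, the signal carriers Smad2, Smad3 and Smad4, the inhibitors Smad7, Ski and Skil, and the target gene Pmepa1. They were picked by symbol from the 55401 genes of the count tables, and all 10 had a row and passed the filter on low counts. The choice was made with earlier results of the same comparison known, so the differences of these 10 genes between the groups are given as a description and without a test. RNA was sequenced from splenic CD4+ T cells, bead-enriched for naive cells, after 24 h of CD3 and CD28 stimulation. The Satb1 cKO group (3 libraries) came from Satb1 flox/flox mice carrying CD4-Cre, in which Cd4 control elements drive the recombinase, and the control group (3 libraries) came from mice labelled WT. This Cre acts in the thymus before CD4 and CD8 cells part, and so also in the precursors of regulatory T cells and CD8 cells. The labels do not give the age of the mice, whether the control mice carried Cre or floxed alleles, or how many mice stand behind the 3 libraries of each group, so the spread that p-values rest on may be only technical.

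TGF-beta 1 is made as a latent complex that furin cleaves and that integrins of the alpha V family release. The free ligand binds a receptor kinase pair, TGFBR2 and TGFBR1, which phosphorylates SMAD2 and SMAD3. These join SMAD4 in the nucleus, where the co-repressors SKI and SKIL (SnoN) hold them in check. SMAD7 blocks and helps degrade the receptors, and PMEPA1 is a membrane protein that binds SMAD2 and SMAD3 and keeps them from the receptors. Smad7, Skil and Pmepa1 are themselves induced by the pathway, which makes them feedback genes. In T cells the pathway restrains activation and effector differentiation and takes part in forming regulatory and tissue-resident cells.

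The libraries held 16621609 to 19023023 reads on genes in Satb1 cKO and 14895389 to 20266626 in control. Reads on no annotated feature made up 7.32 to 7.61% of the reads in Satb1 cKO libraries and 9.18 to 9.50% in control libraries. Satb1 itself stood at 426, 546 and 462 CPM (reads scaled to a common library size) in Satb1 cKO and at 712, 851 and 727 CPM in control. It was lower in every Satb1 cKO library (log2 fold change -0.68, SE 0.087; edgeR's quasi-likelihood test gave an adjusted p of 9.7e-05). The labels do not say which exons are floxed, and reads on exons that remain after deletion count as Satb1 too. Over all genes, 5651 of 13364 tested genes (42.3%) differed at an adjusted p under 0.05, 21.6% higher and 20.7% lower in Satb1 cKO, and the median log2 fold change of all tested genes was 0.0034. Replicate 1 of either group stood somewhat apart from the other replicates. Counts of Satb1 cKO replicate 1 differed from those of replicates 2 and 3 with a chi-square per degree of freedom of 5.47 and 5.07, against 2.75 between replicates 2 and 3. Control replicate 1 gave 6.90 and 6.11, against 2.09 between control replicates 2 and 3. The T cell markers Cd3e, Cd3d, Cd3g, Cd247, Cd2, Cd5, Cd4 and Trac were present in every library and summed to 1831 to 1876 CPM in Satb1 cKO and 2381 to 2475 CPM in control, with 1 of the 8 called higher and 5 called lower. Most of that gap is Cd4, the coreceptor gene itself, at 210.2, 212 and 204 CPM in Satb1 cKO and 721, 681 and 701 CPM in control (log2 fold change -1.75, SE 0.038), while Cd5 was higher (0.34, SE 0.055).

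The genes lie apart in the genome, on chromosomes 2, 3, 4, 7, 9 and 18. Their exons overlap those of no other annotated gene (GENCODE M21, GRCm38), so their counts are not shared with a neighbour or an antisense transcript. RefSeq promoter windows of 300 bases (250 before and 50 after the start, GRCm38.p6) were at hand for 5 of the 10 genes. Those of the ligand, the receptors and Ski are shown, because they include a gene that was higher, 2 that were lower and 1 that was not called in Satb1 cKO. Capitals mark CAGAC or its reverse complement GTCTG, the short element that SMAD proteins bind, and GGCGCC, a GC-rich element also bound by them.
Tgfb1 (chr7:25686752-25687051, plus strand): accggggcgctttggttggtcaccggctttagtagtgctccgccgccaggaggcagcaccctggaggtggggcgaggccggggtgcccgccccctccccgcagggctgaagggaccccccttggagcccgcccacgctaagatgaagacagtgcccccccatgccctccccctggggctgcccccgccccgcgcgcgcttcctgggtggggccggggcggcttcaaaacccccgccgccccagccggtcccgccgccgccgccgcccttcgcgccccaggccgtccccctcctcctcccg
Tgfbr1 (chr4:47352972-47353271, plus strand): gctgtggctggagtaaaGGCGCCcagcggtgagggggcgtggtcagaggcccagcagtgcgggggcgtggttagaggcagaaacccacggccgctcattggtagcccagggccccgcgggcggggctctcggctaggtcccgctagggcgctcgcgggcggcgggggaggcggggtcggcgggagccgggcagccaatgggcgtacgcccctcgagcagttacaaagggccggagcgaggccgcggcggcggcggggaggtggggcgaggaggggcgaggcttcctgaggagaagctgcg
Tgfbr2 (chr9:116175314-116175613, minus strand): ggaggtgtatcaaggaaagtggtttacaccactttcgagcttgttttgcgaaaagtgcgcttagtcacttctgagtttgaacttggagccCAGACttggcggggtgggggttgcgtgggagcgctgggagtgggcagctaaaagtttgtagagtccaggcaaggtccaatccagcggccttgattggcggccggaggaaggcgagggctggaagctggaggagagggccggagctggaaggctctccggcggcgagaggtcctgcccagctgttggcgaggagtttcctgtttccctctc
Ski (chr4:155222486-155222785, minus strand): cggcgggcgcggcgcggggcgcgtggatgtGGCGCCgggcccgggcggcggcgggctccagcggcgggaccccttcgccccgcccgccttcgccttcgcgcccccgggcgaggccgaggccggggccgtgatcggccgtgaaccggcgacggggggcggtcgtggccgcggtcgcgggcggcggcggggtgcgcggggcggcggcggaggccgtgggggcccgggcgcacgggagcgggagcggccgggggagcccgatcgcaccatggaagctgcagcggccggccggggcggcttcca

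The Tgfb1 window held neither element, nor did that of Smad3, which is not shown. Tgfbr2 held 1 CAGAC match, and Tgfbr1 and Ski held 1 GGCGCC match each. A second, downstream Tgfbr1 window, not shown, held 1 CAGAC match. Both strands were searched, and no match overlapped another. Of all 32851 mouse promoter windows of this length, 49.6% held CAGAC or GTCTG and 11.9% held GGCGCC. A single CAGAC or GTCTG match is thus common, and GGCGCC is less so. The windows shown were rich in G and C: 77.0% in Tgfb1, 74.7% in Tgfbr1, 59.0% in Tgfbr2 and 85.3% in Ski, against a median of 52.7% over all windows. How usual a GGCGCC match is among windows as rich in G and C was not tested. The longer palindrome GTCTAGAC was in none of the windows used here and in 0.213% of all windows.

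Among the 10 genes, Pmepa1 differed most between the groups, Tgfb1 and Smad7 were moderately higher, and Ski and Tgfbr1 moderately lower in Satb1 cKO. Smad3, Smad4 and Skil had overlapping libraries, while Smad2 and Tgfbr2 differed little. At an adjusted p under 0.05, 3 genes were called higher (Tgfb1, Smad7, Pmepa1) and 3 lower (Tgfbr1, Ski, Smad2), that is 6 of 10 beside 42.3% of all tested genes. As the comparison chose the genes, nothing is read from that count. The median log2 fold change of the 10 genes was 0.04, and their median absolute log2 fold change was 0.24, beside 0.22 for all tested genes. In 7 of the 10 the 3 Satb1 cKO libraries lay wholly above (4) or below (3) the 3 control libraries. This was so for 53.4% of all tested genes, 27.0% above and 26.5% below.

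**Figure D1:**
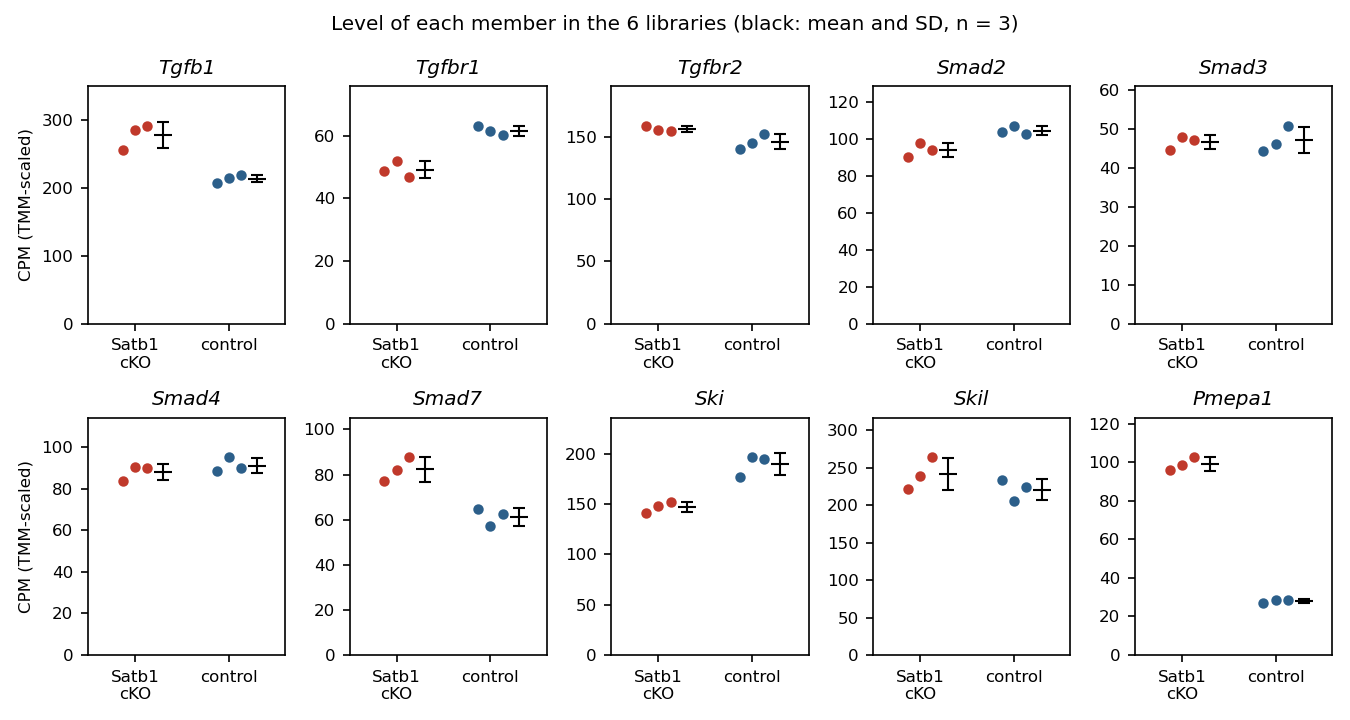
Level of each gene in CPM (vertical axes, starting at 0) in the 3 Satb1 cKO libraries (red, left) and the 3 control libraries (blue, right), with the mean and SD of each group in black. Pmepa1 shows the widest gap, at 96.0 to 103 CPM in Satb1 cKO and 26.9 to 28.8 CPM in control, while Smad3, Smad4 and Skil overlap.

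Tgfb1 (ENSMUSG00000002603.15, chromosome 7, 25687002 to 25705077) encodes the ligand that T cells make. Its level was 256, 286 and 292 CPM in Satb1 cKO replicates 1, 2 and 3, and 208, 214 and 219.5 CPM in control replicates 1, 2 and 3. Every Satb1 cKO library lay above every control library, and the group means were 278 ± 19.4 and 214 ± 5.85 CPM (SD, n = 3 each), a log2 fold change of 0.38 (SE 0.053). Other blood cells also make this ligand, platelets and myeloid cells among them. The 6 platelet markers (Pf4, Ppbp, Itga2b, Gp1ba, Gp9, Treml1) summed to 6.15 to 11.5 CPM in Satb1 cKO and 3.59 to 5.51 CPM in control. Called higher were 2 of 3 tested markers, Itga2b and Ppbp, beside 21.6% of all tested genes. Ppbp was rare in control (3, 9 and 2 reads), and its libraries overlapped between the groups. The 10 myeloid markers, led by Lyz2, summed to 62.0 to 141 CPM in Satb1 cKO and 16.9 to 18.9 CPM in control, with all 9 tested markers called higher. Some of the 9 were rare in control, such as Itgam (2, 5 and 3 reads) and Adgre1 (6, 3 and 7 reads). Such genes passed the filter through their Satb1 cKO reads, so the count of 9 is partly set by the filter. Lyz2 (201, 153 and 116 reads) and Cd68 (91, 63 and 70 reads) were well counted in control too. No marker of either list was at 0 in every library. The 7 red cell markers summed to 310, 1862 and 1609 CPM in Satb1 cKO and to 24.9 to 31.4 CPM in control. Within Satb1 cKO, Tgfb1, platelet and red cell markers were lowest in replicate 1, and myeloid markers in replicate 2. The part of these cells in the difference of Tgfb1, or of the other 9 genes, was not tested. In libraries of mixed cells, fewer cells of a type cannot be told apart from less RNA per cell.

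Of the 2 receptor genes, Tgfbr1 was lower in Satb1 cKO and Tgfbr2 was not called. Tgfbr1 (ENSMUSG00000007613.15, chromosome 4, 47353222 to 47414931), the type I receptor kinase, stood at 48.7, 52.0 and 46.8 CPM in Satb1 cKO and at 63.3, 61.4 and 60.1 CPM in control. The groups did not overlap (log2 fold change -0.33, SE 0.055). Tgfbr2 (ENSMUSG00000032440.13, chromosome 9, 116084293 to 116175360), the type II receptor that binds the ligand, stood at 159, 156 and 155 CPM in Satb1 cKO and at 141, 146 and 153 CPM in control. These libraries did not overlap either, but the gap between the nearest ones was small and the gene was not called (log2 fold change 0.10, SE 0.043). Tgfbr2 reads per exon length exceeded those of Tgfbr1 2.61, 2.39 and 2.64 times in the Satb1 cKO libraries and 1.78, 1.89 and 2.03 times in the control libraries. This receptor ratio was thus higher in every Satb1 cKO library.

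Of the signal-carrying Smads, Smad2 was slightly lower in Satb1 cKO, and Smad3 and Smad4 were not called. Smad2 on chromosome 18, which encodes a receptor-activated SMAD, stood at 90.2, 97.7 and 94.0 CPM in Satb1 cKO and at 104, 107 and 102 CPM in control. Its libraries did not overlap, with a log2 fold change of -0.15 (SE 0.046). Its call was lost without Satb1 cKO replicate 1 (-0.12), without Satb1 cKO replicate 3 (-0.15) and without control replicate 2 (-0.14). Smad3 (ENSMUSG00000032402.12, chromosome 9, 63646767 to 63757994), the other receptor-activated SMAD of this branch, stood at 44.4, 47.9 and 47.1 CPM in Satb1 cKO and at 44.3, 46.1 and 50.7 CPM in control. The groups overlapped fully (log2 fold change -0.02, SE 0.064), and the sign turned positive without Satb1 cKO replicate 1 (0.02) or control replicate 3 (0.04). Smad4, the partner shared by all SMAD complexes and also on chromosome 18, stood at 83.7, 90.6 and 89.9 CPM in Satb1 cKO and at 88.4, 95.2 and 89.8 CPM in control. Its groups overlapped as well (log2 fold change -0.05, SE 0.050). Per exon length, Smad2 came to 1.28, 1.29 and 1.26 times Smad3 in the Satb1 cKO libraries. Smad2 came to 1.48, 1.47 and 1.27 times Smad3 in the control libraries, so this ratio overlapped between the groups.

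The inhibitors split, with Smad7 higher, Ski lower and Skil overlapping. Smad7, on chromosome 18, stood at 77.1, 82.0 and 87.8 CPM in Satb1 cKO and at 64.8, 57.0 and 62.4 CPM in control. Its libraries did not overlap (means 82.3 ± 5.36 and 61.4 ± 3.99 CPM, SD, n = 3 each; log2 fold change 0.42, SE 0.063). Ski (ENSMUSG00000029050.15, chromosome 4, 155154075 to 155222592) stood at 141, 148 and 152 CPM in Satb1 cKO and at 177, 196 and 195 CPM in control. Here every Satb1 cKO library lay below every control library (means 147 ± 5.35 and 189 ± 11.0 CPM, SD, n = 3 each; log2 fold change -0.37, SE 0.051). Its relative Skil (ENSMUSG00000027660.16, chromosome 3, 31095058 to 31122577) stood at 221, 239.5 and 264 CPM in Satb1 cKO and at 234, 205 and 224 CPM in control. Satb1 cKO replicate 1 lay within the control range, and Skil was not called (log2 fold change 0.13, SE 0.066). Without that library Skil was called higher (0.19), while without Satb1 cKO replicate 3 the log2 fold change was 0.06 and without control replicate 2 it was 0.07. Per exon length, Skil came to 0.899, 0.931 and 0.998 of Ski in the Satb1 cKO libraries and to 0.759, 0.599 and 0.659 of Ski in the control libraries. The balance between the 2 co-repressor transcripts lay closer to Skil in all 3 Satb1 cKO libraries.

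Pmepa1 (ENSMUSG00000038400.15, chromosome 2, 173224458 to 173276533), the pathway target of the set, was counted in 1828, 1724 and 1702 reads in Satb1 cKO and in 547, 429 and 443 reads in control. Its level was 96.0, 98.6 and 103 CPM in Satb1 cKO and 26.9, 28.8 and 28.7 CPM in control. The lowest Satb1 cKO library was far above the highest control library, and replicates agreed closely (coefficient of variation 3.41% in Satb1 cKO and 3.76% in control, n = 3 each). The log2 fold change was 1.82 (SE 0.054), or 3.53-fold, and 433 of the 13364 tested genes had a larger absolute one. It ranged from 1.77 to 1.84 over 12 alternative analyses. By comparison, 3687 tested genes had a larger absolute log2 fold change than Smad7 and 4128 a larger one than Tgfb1. The feedback genes Pmepa1, Smad7 and Skil therefore showed log2 fold changes of 1.82, 0.42 and 0.13, of which those of Pmepa1 and Smad7 came with libraries that did not overlap.

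**Figure D2:**
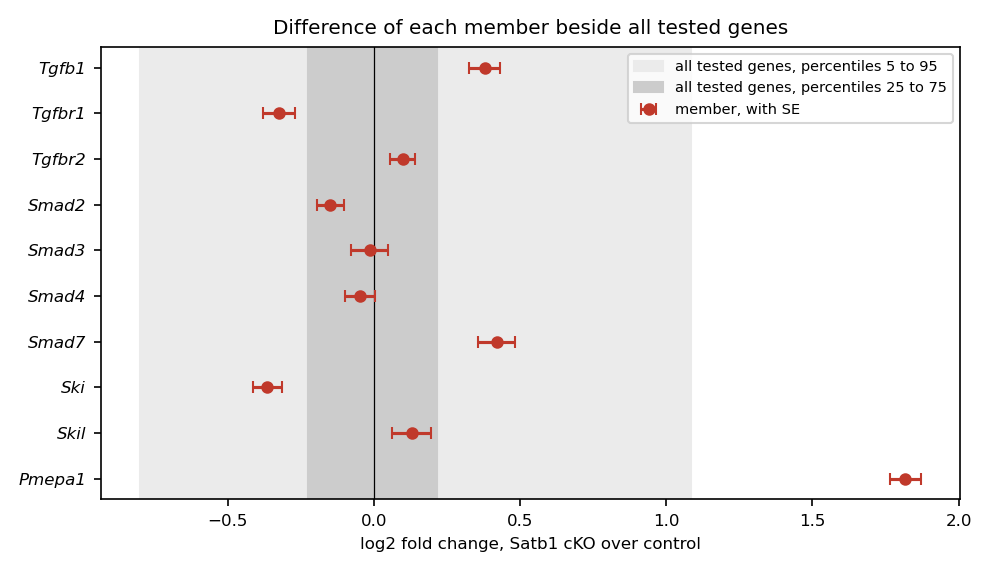
Log2 fold change of each gene, Satb1 cKO over control (horizontal axis), as a point with its SE from the fit across all genes. Grey bands span percentiles 5 to 95 (-0.80 to 1.08) and 25 to 75 (-0.23 to 0.22) of all tested genes; Pmepa1 at 1.82 lies outside both bands, and Tgfbr2, Smad2, Smad3, Smad4 and Skil lie inside the inner one.

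Levels of different genes were compared as CPM per kilobase of exon, a level scale. In control cells Tgfb1 was highest at 42.4 ± 1.16 CPM per kilobase (SD, n = 3), followed by Ski at 34.0 ± 1.97. Smad4 (mean 24.5, from 23.8 to 25.6) and Skil (mean 22.8, from 21.2 to 24.1) came next and overlapped each other. Below them Tgfbr2 stood at 17.9 ± 0.721, Smad7 at 13.6 ± 0.882, Smad2 at 11.9 ± 0.283, Tgfbr1 at 9.43 ± 0.239 and Smad3 at 8.48 ± 0.605. Pmepa1 was last at 5.73 ± 0.215. Apart from Smad4 and Skil, no neighbours in this order had overlapping control libraries. In Satb1 cKO cells Tgfb1 was again first (55.1 ± 3.85 CPM per kilobase, SD, n = 3), while Pmepa1 took place 5 of 10 at 20.2 ± 0.689 and Tgfbr1 was last at 7.53 ± 0.405. There the libraries of neighbouring Ski and Skil overlapped, as did those of Skil and Smad4 and those of Tgfbr2 and Smad7. Pmepa1 came to 1.15, 1.11 and 1.08 of the Smad7 level per exon length in Satb1 cKO libraries and to 0.382, 0.465 and 0.423 of it in control libraries. With the longest transcript as the length, Tgfb1 stood at 83.1 CPM per kilobase in control cells and was still first, and Skil passed Smad4 in the control order. All 10 genes were well expressed in control cells, between percentile 53.9 (Pmepa1) and percentile 93.1 (Skil) of the CPM of tested genes.

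**Figure D3:**
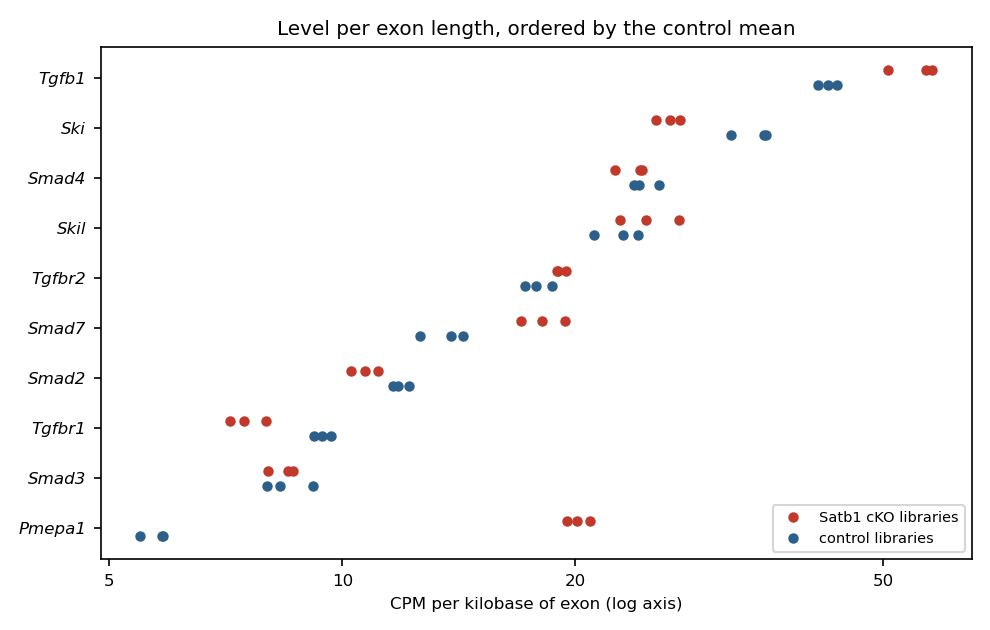
Level per exon length of each gene in CPM per kilobase (horizontal log axis) in the 3 Satb1 cKO libraries (red, upper points) and the 3 control libraries (blue, lower points), ordered by the control mean. Pmepa1 lies at the bottom of the control order with 5.48 to 5.86 CPM per kilobase and at 19.5 to 20.9 in Satb1 cKO, while Tgfb1 is highest in both groups.

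Other genes of the pathway were tested in the same fit. In 6 lists of pathway genes, 109 genes were listed and 85 could be tested, of which 40 rose and 17 fell in Satb1 cKO. That is 67.1% called, beside 42.3% of all tested genes, and their median log2 fold change was 0.12. The lists, like the members, were chosen with earlier results of the same comparison known. Nothing is therefore read from this share of called genes or from those of the single lists below. The p-values of listed genes are given as a description too. Leaving out any 1 library gave 35 to 39 genes higher and 15 to 18 lower.

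The list of ligands also held genes that release or process TGF-beta. Of 23 ligand and activation genes, 9 could be tested, of which 7 rose and 2 fell (beside 42.3% of all tested genes called; median log2 fold change 1.37). Itgav, the integrin alpha V chain that activates latent TGF-beta, stood at 205, 218 and 227 CPM in Satb1 cKO and at 55.8, 50.5 and 53.0 CPM in control, with no overlap (log2 fold change 2.03, SE 0.054, edgeR adjusted p = 1.11e-09). Its partner chain Itgb8, named after its values were seen, stood at 8.25, 14.0 and 10.9 CPM in Satb1 cKO and at 2.41, 2.55 and 3.44 CPM in control (log2 fold change 1.99, SE 0.217). Furin, which cuts the precursor, rose to 303, 325 and 343 CPM in Satb1 cKO, against 191, 158 and 171 CPM in control (log2 fold change 0.90, SE 0.068). Thbs1, encoding thrombospondin 1, a matrix protein that can release the ligand, stood at 4.94, 8.93 and 7.48 CPM in Satb1 cKO and at 0.197, 0.470 and 0.648 CPM in control (log2 fold change 4.06, SE 0.355). With only 4, 7 and 10 reads in control, Thbs1 passed the filter through its Satb1 cKO reads. Bmp7, a ligand of the related bone morphogenetic protein branch, stood at 11.4, 14.3 and 12.0 CPM in Satb1 cKO and at 4.04, 4.63 and 5.25 CPM in control. Lrrc32, encoding the anchor GARP of regulatory T cells and named after its values were seen, rose slightly (log2 fold change 0.33, SE 0.103, adjusted p = 0.0246 in edgeR's test). The 2 genes of the list that fell, also named after their values were seen, were Gdf11 (-0.37, SE 0.109) and Nrros (-0.22, SE 0.048). The isoform gene Tgfb3 was nearly silent, with 8 reads in all Satb1 cKO libraries and 6 in all control libraries, and the latency binding gene Ltbp3 had 22 in Satb1 cKO and 5 in control, too few to test. Thbs1 and alpha V integrins are also made by myeloid cells and platelets. In the same libraries all 9 tested myeloid markers were higher, though some were rare in control, as given above. Of 3 tested platelet markers 2 were higher, with Ppbp rare in control and overlapping as given above, and Gp1ba was not called. Regulatory T cells make Lrrc32 and Itgb8. Their 5 markers (Foxp3, Ikzf2, Il2ra, Ctla4, Lrrc32) summed to 1309 to 1394 CPM in Satb1 cKO and 854 to 941 CPM in control. Of these, 4 were called higher and Ctla4 lower. Most of the sum and of its gap is Il2ra, at 1059, 1086 and 1032 CPM in Satb1 cKO and 583, 661 and 634 CPM in control. Whether myeloid cells, platelets or regulatory T cells carried the rises was not tested.

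Receptor genes outside the set moved strongly in both directions. Of 10 tested among 13, 3 rose and 4 fell (70.0% called, beside 42.3% of all tested genes; median log2 fold change -0.00092). Tgfbr3, encoding the co-receptor betaglycan, fell to 5.72, 6.24 and 5.49 CPM in Satb1 cKO, against 35.3, 51.4 and 44.3 CPM in control (log2 fold change -2.90, SE 0.141, adjusted p = 6.88e-08 in edgeR's test). Acvrl1, encoding the type I receptor ALK1, fell to 0.945, 1.54 and 0.845 CPM in Satb1 cKO, against 6.50, 7.79 and 8.30 CPM in control (log2 fold change -2.75, SE 0.227). Eng, encoding the co-receptor endoglin, rose to 23.4, 23.3 and 25.4 CPM in Satb1 cKO, against 5.96, 6.98 and 3.69 CPM in control (log2 fold change 2.11, SE 0.160). The activin receptor gene Acvr1b, whose product also signals through SMAD2 and SMAD3, fell to 36.0, 40.0 and 38.6 CPM in Satb1 cKO, against 56.5, 56.5 and 53.3 CPM in control (log2 fold change -0.54, SE 0.058). The 2 co-receptor genes Tgfbr3 and Eng thus changed in opposite directions. Endoglin and ALK1 are also known from vessel walls; the 8 stroma and endothelium markers summed to 58.8 to 65.3 CPM in Satb1 cKO and 70.2 to 102 CPM in control, nearly all of it Pecam1, which fell. Pdgfrb rose, with 75 reads in Satb1 cKO and 6 in control. Col3a1 had 22 reads in Satb1 cKO and 0 in control, Col1a2 had 23 in Satb1 cKO and 2 in control, and Cdh5 had 2 in Satb1 cKO and 1 in control. The part of such cells in these changes was not tested.

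Smad partners and turnover genes were split between called and not called. Of 16 tested Smads and partners, 3 rose and 5 fell (8 of 16 called, near the 42.3% of all tested genes; median log2 fold change -0.01). The rises were Zeb2 (log2 fold change 2.35, SE 0.190), encoding a SMAD-binding repressor, Runx3 (0.98, SE 0.050), encoding a lymphocyte factor that cooperates with SMADs, and Tgif1 (0.51, SE 0.063), encoding a co-repressor of SMAD2 and SMAD3. Sin3a, encoding a co-repressor scaffold, fell (-0.24, SE 0.045). Of 21 tested turnover and inhibition genes, 8 rose and 3 fell (52.4% called, near the 42.3% of all tested genes; median 0.06). Ldlrad4, whose product is the closest relative of PMEPA1 and blocks SMAD2 and SMAD3 in a similar way, stood at 12.2, 12.9 and 12.6 CPM in Satb1 cKO and at 5.46, 5.98 and 6.22 CPM in control. Its log2 fold change came to 1.10 (SE 0.112, edgeR adjusted p = 1.76e-05), but 52.1% of its exon bases lie opposite exons of Fam210a, so reads there cannot be assigned if counting ignored strand. Usp11, encoding a deubiquitinase that acts on TGFBR1, and Sik1, encoding a kinase that works with SMAD7, rose with log2 fold changes of 1.11 (SE 0.138) and 0.59 (SE 0.067). Smurf1, encoding a ubiquitin ligase recruited by SMAD7, fell to 41.0, 39.4 and 39.8 CPM in Satb1 cKO, against 52.0, 56.9 and 59.0 CPM in control (-0.48, SE 0.060). Its relative Smurf2 stood at 58.8, 59.9 and 62.0 CPM in Satb1 cKO and at 60.4, 60.4 and 63.1 CPM in control and was not called (-0.02, SE 0.049, adjusted p = 0.713 in edgeR's test).

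**Figure D4:**
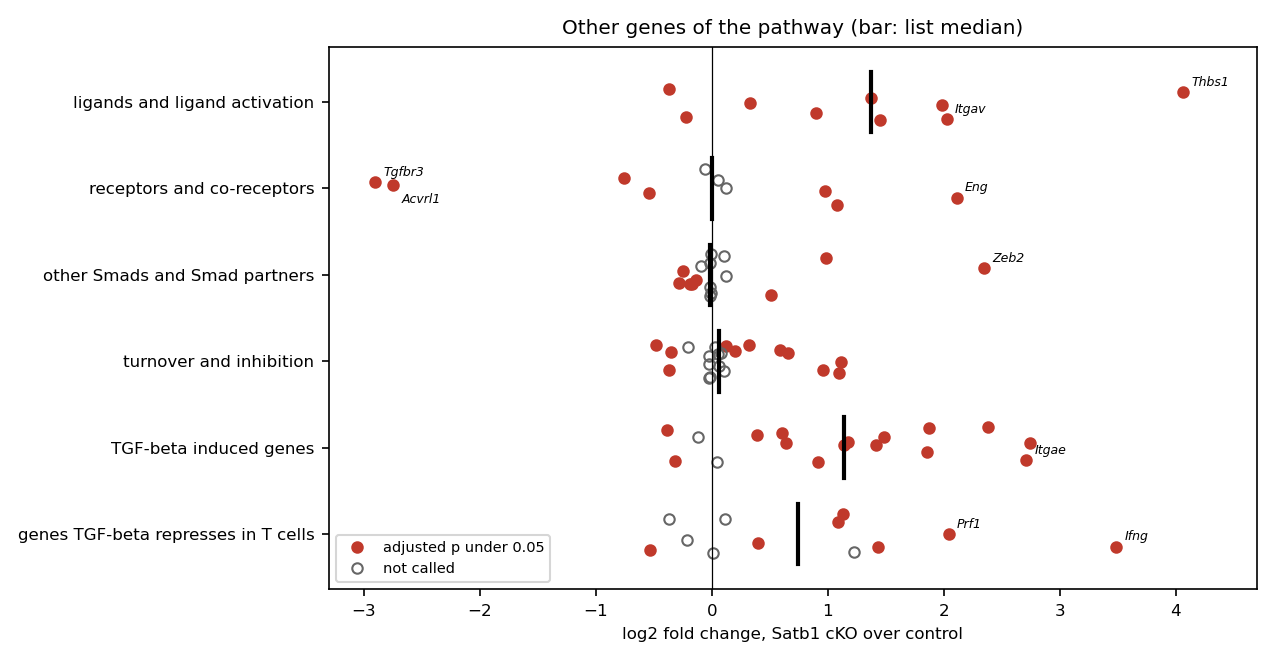
Log2 fold change, Satb1 cKO over control (horizontal axis), of every tested gene of 6 pathway lists (rows); filled points passed an adjusted p under 0.05, open points did not, and bars mark list medians. The activation list and the list of TGF-beta induced genes lie mostly to the right (medians 1.37 and 1.14), and the receptors Tgfbr3 and Acvrl1 lie furthest to the left.

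Most tested genes known to be induced by TGF-beta rose, and so did 6 of 12 genes known to be repressed by it in T cells. Of 17 tested induced genes, 13 rose and 2 fell (88.2% called, beside 42.3% of all tested genes; median log2 fold change 1.14). Itgae, encoding the integrin of tissue-resident T cells and a classical SMAD3 target, stood at 9.35, 8.64 and 8.51 CPM in Satb1 cKO and at 1.33, 1.48 and 1.23 CPM in control (log2 fold change 2.71, SE 0.163). Atf3 (1.86, SE 0.062), encoding a stress-induced factor that also responds to other signals, Nt5e (1.87, SE 0.081), encoding the ectoenzyme CD73, Id2 (1.42, SE 0.084), encoding a helix-loop-helix inhibitor, and Foxp3 (1.48, SE 0.122), encoding the regulatory T cell factor, rose too. Foxp3 shares exon stretches with Flicr, Ccdc22 and other genes. Klf10 and Id1, also named after their values were seen, were the 2 tested genes that were not called (log2 fold changes 0.04, SE 0.119, and -0.12, SE 0.226), and Id3 (-0.39, SE 0.115) and Cd69 (-0.32, SE 0.061) fell. Of the 5 regulatory T cell markers, 4, Foxp3 among them, were higher and Ctla4 was lower in the same libraries, and their part in these rises was not tested. In the repressed list 6 genes rose, 1 fell and 5 were not called (58.3% called, beside 42.3% of all tested genes; median 0.74). Prf1, encoding perforin, stood at 10.6, 11.1 and 11.2 CPM in Satb1 cKO and at 2.12, 3.16 and 2.79 CPM in control (2.04, SE 0.157). Ifng, encoding interferon gamma, varied widely at 10.8, 6.47 and 14.0 CPM in Satb1 cKO and at 0.295, 0.739 and 1.88 CPM in control, without overlap (3.49, SE 0.436). Its log2 fold change was 4.39 without control replicate 3 and 2.96 without control replicate 1. Myc, encoding a transcription factor of cell growth, rose (0.40, SE 0.053), and Klf2, encoding a factor of quiescent T cells, fell (-0.54, SE 0.090). NK cells and CD8 T cells also make perforin and interferon gamma. The 5 NK cell markers summed to 10.9 to 17.3 CPM in Satb1 cKO and 4.78 to 7.79 CPM in control. The 2 CD8 markers summed to 22.5 to 29.6 CPM in Satb1 cKO and 17.6 to 21.4 CPM in control. Most of the CD8 sum is Cd8b1, which was not called (log2 fold change 0.13, SE 0.106). Cd8a had 335 reads in Satb1 cKO and 41 in control (2.95, SE 0.268). In each list 1 of 2 tested markers was called higher (Eomes, which makes up most of the NK sum, and Cd8a). Eomes is also on the repressed list. Of the other NK markers, Gzma was not called, and 3 were too rare to test. These were Ncr1, with 17 reads in Satb1 cKO and 20 in control, Klrb1c, with 20 and 14, and Klre1, with 27 and 2. The part of NK cells and CD8 T cells in these rises was not tested. Signalling through the receptor, such as SMAD phosphorylation, was not measured.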

How the data were processed

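Groups and replicate numbers came from the sample titles. For each library the authors deposited raw counts, whole reads per gene without normalization. STAR 2.7.3a, HTSeq 0.12.4 and mm10 (GRCm38) are named, per the submitters' processing notes. Which annotation release and strand setting served is not stated in the sources. The 5 summary lines that name no gene were left out. In edgeR 4.0.16 (R 4.3.3) filterByExpr left 13364 of 55401 genes, libraries were scaled by TMM, and glmQLFit and glmQLFTest were run with group as the only term. A gene was called where its p, adjusted over all tested genes by Benjamini-Hochberg, was under 0.05. CPM use TMM-scaled library sizes, and SEs come from the coefficient and its F statistic. The analysis was tested on simulated counts. Symbols, positions and exon lengths came from GENCODE M21 (55141 of 55401 identifiers matched). No replicate pair held identical tables, and all differed by more than sampling noise.

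The members and lists were chosen with earlier results of these data known. Named genes were the 10 members, Satb1, up to 4 called genes of smallest p from each pathway list, and Ltbp3, Tgfb3, Tgfbr3, Itgae, Foxp3, Ldlrad4 and Smurf2; others are marked as named after their values were seen. Id3 and Cd69 were also named after their values were seen. Markers of B cells summed to 240 to 300.3 CPM in Satb1 cKO and 226 to 287 CPM in control, and those of dendritic cells to 16.1 to 16.7 CPM in Satb1 cKO and 3.84 to 4.57 CPM in control, a gap carried by Zbtb46 (Flt3 was not called). Alternatives were RLE and upper-quartile scaling, DESeq2 1.42.0, no filter, a replicate block, scaling without immunoglobulin, T cell receptor, red cell and mitochondrial genes, and leaving out each library. Some genes of the lists are counted but not reported here by name.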

Additional observations from a re-analysis of the deposited data

How the results depend on the processing

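The counts of called genes stayed within 1.5 times those reported under RLE or upper-quartile scaling, DESeq2, no filter, the replicate block, scaling without immunoglobulin, T cell receptor, red cell and mitochondrial genes, and without any 1 library. Leaving out 1 library at a time gave 2396 to 2898 genes higher and 2275 to 2937 lower, 3 to 4 members higher and 2 to 3 lower, and a Satb1 log2 fold change of -0.79 to -0.60. Of the named genes, Smad2 lost its call without 3 of the libraries and Skil gained one without Satb1 cKO replicate 1, as given above. The median log2 fold change of the members was -0.0055 without control replicate 1. With the longest transcript as the length, the order of member levels correlated with the reported one at a Spearman rho of 0.988, with Skil and Smad4 exchanged. Depth limits the rare genes: 24 of the 109 pathway genes had too few reads to test.

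Same-numbered libraries did not deviate together (correlations 0.027, -0.0076 and 0.020), and 2 of 6 libraries correlated best with their own number, so the numbers were not taken as pairs. With the replicate block, 2861 genes were higher and 2702 lower, members stayed at 3 and 3, and the other pathway genes at 39 and 19.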

Other observations

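Control replicate 1 differed from the other control libraries in a T helper gene picked after its values were seen. Tbx21, encoding the Th1 factor T-bet, stood at 108, 106 and 111 CPM in Satb1 cKO replicates 1, 2 and 3 and at 17.0, 64.1 and 69.8 CPM in control replicates 1, 2 and 3. Among the genes too rare to test, Cdkn2b, also picked after its values were seen and encoding a cell cycle inhibitor that TGF-beta induces in other cells, had 11, 9 and 5 reads in Satb1 cKO and 0, 0 and 3 reads in control.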
